A study of Homo sapiens with 6 samples.

Results

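The genes described here encode WNT ligands, their receptors and secreted inhibitors, the proteins that carry the signal into the nucleus and a few targets that feed back on it. They were listed by role, and a gene was taken as measured where a probe set of the array named it and no other gene. Of 51 listed genes, 50 were measured, by 51 of the 21062 probe sets tested, since DKK3 had 2, and TCF7 was not analysed here. WNT proteins are secreted ligands that bind Frizzled receptors together with the co-receptors LRP5 and LRP6. In the canonical branch this stops a destruction complex built on APC, AXIN and GSK3B from marking β-catenin for degradation, and β-catenin then joins TCF and LEF factors on target genes. In the non-canonical branches WNT ligands act without β-catenin, for instance through the receptor ROR2, on cell polarity and movement.

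Total RNA was hybridized to Affymetrix Human Gene ST arrays, 3 of them labelled HEK-BAHD1 and 3 labelled HEK293-CT. Both lines derive from HEK293, an established line of transformed human embryonic kidney cells, carry a tetracycline repressor and were kept as stable hygromycin-resistant transfectants. The HEK-BAHD1 line holds a BAHD1 cDNA under a cytomegalovirus promoter, inserted at 1 recombination site. BAHD1 is a chromatin protein that takes part in forming silent heterochromatin. By its label the HEK293-CT line holds an out-of-frame β-galactosidase insert at that site, while the study's methods describe an empty vector. The arrays of a group came from separate cultures of 1 transfected line, so the p-values measure the spread between such cultures only. The study's supplement gives a later passage for HEK-BAHD1 replicate 2 than for the control and HEK-BAHD1 replicate 1. The passage of the remaining HEK-BAHD1 replicate is not given there, and the part of passage was not tested. As bulk RNA was measured, fewer cells of a type and less RNA per cell cannot be told apart.

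The transgene BAHD1, read first, contradicted the array labels. It gave log2 signals of 6.75, 7.0 and 6.76 on the arrays labelled HEK-BAHD1, against 10.06, 9.81 and 9.93 on those labelled HEK293-CT, a difference of -3.10 (SE 0.0925, adjusted p = 3.12e-05 from limma). Every direction given here therefore follows the array labels and would turn round if the labels had been exchanged. Separate RT-QPCR and immunoblots that the study describes for these lines had BAHD1 raised in HEK-BAHD1, opposite to the array signals under these labels. Those measures do not show which line each array came from, and an exchange of array labels was not tested. Of 9 measured genes chosen to mark HEK293 cells, the epithelial keratins KRT8 and KRT18 and the filament genes VIM and NEFL lay above the median signal of all probe sets, whereas PAX2, PAX8, LHX1, NEFM and MYCN lay under it. Of 18 markers of blood, endothelium, fibroblasts, squamous epithelium and liver, only COL1A1 lay above that median. VIM (-0.28) was called lower, and NEFL (0.40) and NEFM (0.77) were called higher, the mean of the 9 HEK293 markers being 7.72 to 7.76 on arrays labelled HEK-BAHD1 and 7.59 to 7.64 on arrays labelled HEK293-CT. Of the 18 other markers, 2 were called lower and 0 higher, and the part of these genes in the results was not tested. The medians of the 6 arrays ranged from 5.46 to 5.56.

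The WNT genes that passed the test were all higher on the arrays labelled HEK-BAHD1. A gene was called where its limma p, adjusted over all probe sets tested, was below 0.05 and the medians of the groups differed by more than 0.2 on the log2 scale. By this rule 13 of the 50 genes (26.0%) were higher and 0 were lower, beside 6.79% of all probe sets called higher and 6.39% called lower. They comprised 6 ligands (WNT3, WNT5A, WNT5B, WNT10B, WNT11 and WNT16), the receptors FZD9 and ROR2, the secreted inhibitors SFRP1 and WIF1, the R-spondin receptor LGR5, the factor TCF7L1 and the feedback target NKD1. At an unadjusted p below 0.05, 21 genes were higher and 1, FZD7, was lower, beside 14.5% and 14.8% of all probe sets. The local pooled error test, that of the study's methods, called 6 higher (WNT5A, WNT11, WNT16, SFRP1, WIF1 and LGR5) and 0 lower, beside 6.29% and 7.41% of all probe sets. With limma, 8 were called higher without HEK-BAHD1 replicate 1, 7 without HEK-BAHD1 replicate 3 and 7 without HEK293-CT replicate 2, with 0 lower each time. The changes were modest in size, with a median of 0.32 among the 13 genes and 0.36 among all probe sets called higher.

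**Figure D1:**
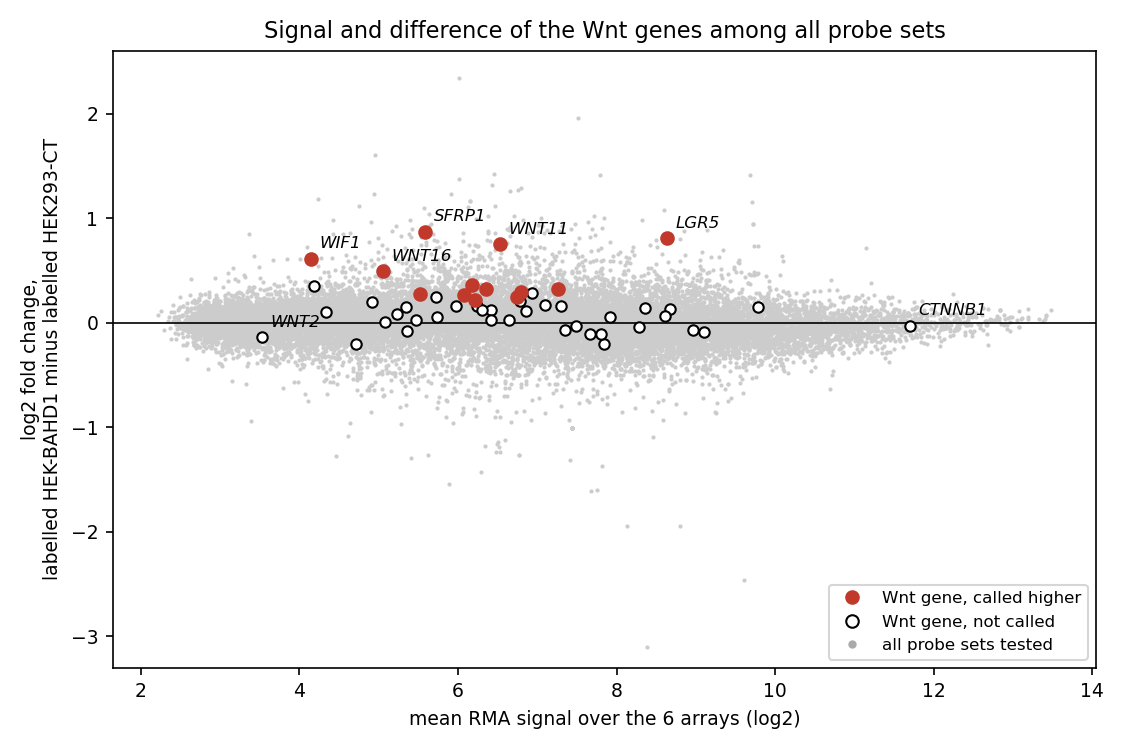
Difference between arrays labelled HEK-BAHD1 and HEK293-CT (log2, vertical) against the mean log2 signal over the 6 arrays (horizontal) for all probe sets tested (grey) and for 50 WNT genes, with called genes in red and the others in white. The 13 called WNT genes all lie above 0, and 8 of them are dimmer than the median of all probe sets.

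Over all 50 genes, the 13 called ones included, the mean was higher on the arrays labelled HEK-BAHD1 for 38 of the 50 genes and lower for 12, and the median difference was 0.132, against 0.003 over all probe sets tested. With the arrays centred on their medians or quantile-normalized again, the mean was higher for 34 genes and lower for 16. In 22 genes (44.0%) all 3 arrays labelled HEK-BAHD1 lay above all 3 labelled HEK293-CT, beside 16.7% of all probe sets, and in 2 genes (4.0%), FZD7 and CTNNB1, they lay below, beside 16.9%. Groups without overlap in either direction made up 24 of the 50 WNT genes and 33.6% of all probe sets. Over all probe sets the difference moved with signal, with a median of 0.043 between 5 and 6 and of 0.047 between 6 and 7 on the log2 scale, where 26 of the WNT genes and 10 of the 13 called ones lay. Between 6 and 7, 13.1% of all probe sets were called higher, and 7 of the 15 WNT genes were. The part of signal in the count was not tested beyond these values. With each array centred on its median, 1052 probe sets were called higher and 1823 lower, beside 1430 and 1345 without centring, and 10 WNT genes were then called higher and 0 lower, without WNT3, FZD9 and TCF7L1.

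Promoters from RefSeq (GRCh38.p14), each 250 bases before to 50 after an annotated start, were matched to 35 of the measured WNT genes, which had 42 of them. They were searched on both strands for CTTTGAT and CTTTGAA, 2 forms of the core that TCF and LEF factors bind. The 2 words overlap in all but the last base, and other forms of the core were not searched for. Of the 42 promoters, 2 (4.76%) held a match, those of SP5 and DKK1, beside 6.86% of all 35116 promoters in the table. SP5, a transcription factor gene induced by canonical WNT signalling, held 3 matches that began 148, 109 and 84 bases before the start, and 9 of all promoters (0.0256%) held 3 or more. DKK1, whose product blocks LRP5 and LRP6, held 1 match 95 bases before the start. Both are shown with the matches in capitals, the SP5 window at chr2:170715087-170715386 and the DKK1 window at chr10:52314031-52314330, each on the plus strand.
SP5: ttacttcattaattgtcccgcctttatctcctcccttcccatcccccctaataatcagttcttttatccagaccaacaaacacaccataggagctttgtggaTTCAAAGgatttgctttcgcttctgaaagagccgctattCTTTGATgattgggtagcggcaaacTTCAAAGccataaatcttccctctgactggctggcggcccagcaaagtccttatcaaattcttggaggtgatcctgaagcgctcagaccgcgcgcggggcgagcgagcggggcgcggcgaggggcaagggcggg
DKK1: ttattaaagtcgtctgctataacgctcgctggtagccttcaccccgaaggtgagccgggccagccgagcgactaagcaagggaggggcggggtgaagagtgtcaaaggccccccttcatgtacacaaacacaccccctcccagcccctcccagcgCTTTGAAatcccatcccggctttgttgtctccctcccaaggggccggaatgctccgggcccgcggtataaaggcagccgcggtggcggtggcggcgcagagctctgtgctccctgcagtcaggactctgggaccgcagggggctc
Neither of these genes was called. SP5 gave log2 signals of 6.31, 6.41 and 6.58 on arrays labelled HEK-BAHD1, against 6.57, 6.34 and 6.31 on arrays labelled HEK293-CT, a difference of 0.03 (95% interval -0.20 to 0.25). DKK1 gave 4.65, 4.70 and 4.51 on arrays labelled HEK-BAHD1, against 4.67, 4.95 and 4.83 on arrays labelled HEK293-CT, a difference of -0.20 (95% interval -0.40 to 0.00). The groups overlapped in both genes.

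Of the called genes, 8 had a promoter in the table, with 10 promoters in all, and 0 of these held the letters searched for. The called genes LGR5, SFRP1, WNT11, WNT10B and NKD1 had no promoter there and were not searched. Neither was the feedback target AXIN2. The promoters of the WNT genes were rich in the dinucleotide CG, which can carry DNA methylation, with a median of 28.5 per promoter over the 42, of 25 over the 10 and of 14 over all promoters. The windows of the inhibitor gene WIF1 (chr12:65121256-65121555, minus strand) and of the ligand gene WNT5A (chr3:55487257-55487556, minus strand) are shown as called genes, with each CG in capitals. They held 29 and 21 CG pairs. The start used for WNT5A lies inside the gene, downstream of its outermost annotated start.
WIF1: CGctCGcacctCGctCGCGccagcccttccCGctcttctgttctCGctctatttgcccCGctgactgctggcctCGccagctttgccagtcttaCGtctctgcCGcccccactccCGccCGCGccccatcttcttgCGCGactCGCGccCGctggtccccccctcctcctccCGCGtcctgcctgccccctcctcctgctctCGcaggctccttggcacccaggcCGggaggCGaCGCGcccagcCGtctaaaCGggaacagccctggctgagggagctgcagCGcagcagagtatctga
WNT5A: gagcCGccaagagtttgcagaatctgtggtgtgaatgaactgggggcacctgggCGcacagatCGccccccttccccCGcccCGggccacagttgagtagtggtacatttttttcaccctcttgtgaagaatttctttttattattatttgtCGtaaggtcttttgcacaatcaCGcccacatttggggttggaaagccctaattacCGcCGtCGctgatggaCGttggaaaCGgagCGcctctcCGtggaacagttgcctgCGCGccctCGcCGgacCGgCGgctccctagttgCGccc

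Among the 17 WNT ligands, 6 were higher and 0 lower, beside 6.79% and 6.39% of all probe sets. The mean of the arrays labelled HEK-BAHD1 was the higher one in 16 ligands, WNT2 being the exception, and the median difference was 0.15. WNT11, a mostly non-canonical ligand known for its part in cell movement and kidney branching, differed most. Its log2 signal was 6.62, 6.99 and 7.10 on the arrays labelled HEK-BAHD1, against 6.09, 6.24 and 6.13 on those labelled HEK293-CT. The mean was 6.90 ± 0.251 for the label HEK-BAHD1 and 6.15 ± 0.0777 for the label HEK293-CT (SD, n = 3 each), a difference of 0.75 (SE 0.12, adjusted p = 0.0087 from limma). The groups did not overlap, although the arrays labelled HEK-BAHD1 spread widely, replicate 1 being the lowest. WNT16, a ligand known from bone and blood stem cell formation, read 5.26, 5.26 and 5.39 on arrays labelled HEK-BAHD1, against 4.77, 4.78 and 4.90 on arrays labelled HEK293-CT. The difference was 0.49 (SE 0.065, adjusted p = 0.0044), and the groups stood well apart.

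The paralogues WNT5A and WNT5B, ligands of the non-canonical branch, were both higher. WNT5A read 7.39, 7.44 and 7.43 on arrays labelled HEK-BAHD1, against 7.01, 7.14 and 7.15 on arrays labelled HEK293-CT, a difference of 0.32 (SE 0.0593, adjusted p = 0.0141 from limma). WNT5B read 6.58, 6.42 and 6.53 on arrays labelled HEK-BAHD1, against 6.25, 6.22 and 6.11 on arrays labelled HEK293-CT, a difference of 0.32 (SE 0.0667, adjusted p = 0.0222). The groups were apart in both genes, but the WNT5B call was lost without any of 4 arrays, HEK-BAHD1 replicate 1 or 3 or HEK293-CT replicate 2 or 3 (adjusted p 0.052 to 0.0767).

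The other 2 called ligands act mainly in the canonical branch. WNT10B, which favours bone over fat cell formation, read 6.32, 6.32 and 6.46 on arrays labelled HEK-BAHD1, against 5.96, 6.0 and 6.05 on arrays labelled HEK293-CT, a difference of 0.36 (SE 0.0618, adjusted p = 0.0106 from limma). WNT3, needed for the body axis and limbs, read 6.16, 6.28 and 6.20 on arrays labelled HEK-BAHD1, against 5.94, 5.85 and 6.06 on arrays labelled HEK293-CT, a difference of 0.26 (SE 0.0701, adjusted p = 0.0464). Neither gene overlapped between the groups. The WNT3 call lay close to the threshold and was lost without any 1 array other than HEK293-CT replicate 3 (adjusted p 0.0804 to 0.125). The 11 ligands that were not called included WNT2, the dimmest probe set of the ligands, at a mean log2 signal of 3.53. The brightest was WNT5A at 7.26, and such signals do not order the genes by transcript abundance, because probe sets differ in how well they bind.

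**Figure D2:**
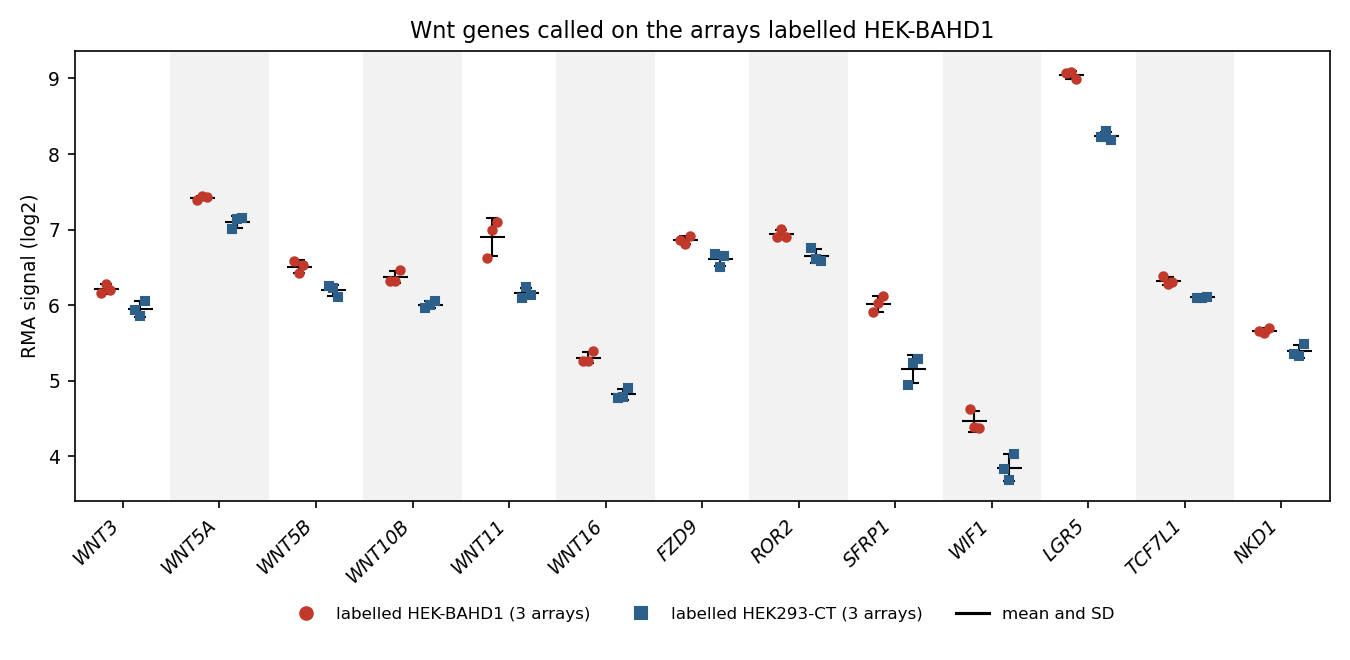
Log2 signal of each array for the 13 called WNT genes, with the 3 arrays labelled HEK-BAHD1 as red circles on the left of each pair and the 3 labelled HEK293-CT as blue squares on the right, and bars for the mean and SD. No group pair overlaps, and the widest spread is that of WNT11 on the arrays labelled HEK-BAHD1 (SD 0.251).

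Of the 10 Frizzled genes, the receptors that WNT ligands bind directly, 1 was higher and 0 were lower, beside 6.79% and 6.39% of all probe sets. The 10 genes split evenly by their means, 5 above and 5 below. Their median difference was 0.002. It was below 0 with the arrays centred on their medians (-0.038), quantile-normalized (-0.017) or normalized by cyclic loess (-0.015). FZD9 read 6.86, 6.81 and 6.91 on arrays labelled HEK-BAHD1, against 6.68, 6.50 and 6.65 on arrays labelled HEK293-CT, a difference of 0.25 (SE 0.0662, adjusted p = 0.0457 from limma). The groups did not overlap, but the call was lost without any 1 of the 6 arrays (adjusted p 0.0657 to 0.124). FZD7 had the largest difference downwards of the family, -0.20 (adjusted p = 0.0987), with no overlap between the groups. FZD2 (0.21) and FZD3 (0.13) lay above without overlap and were not called either (adjusted p = 0.0554 and 0.15). Mean signals ran up to 9.10 for FZD6, with FZD10 the dimmest at 5.36.

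Of the 5 co-receptors and other WNT receptors, 1 was higher and 0 were lower, beside 6.79% and 6.39% of all probe sets. ROR2, a receptor tyrosine kinase through which WNT5A acts, read 6.90, 7.01 and 6.90 on arrays labelled HEK-BAHD1, against 6.75, 6.61 and 6.58 on arrays labelled HEK293-CT, a difference of 0.29 (SE 0.0669, adjusted p = 0.0297 from limma). The groups did not overlap, and the call was lost without any 1 array other than HEK293-CT replicate 1 (adjusted p 0.0648 to 0.0993). LRP5 (0.28), the related kinase ROR1 (0.16) and the receptor RYK (0.15) were also above without overlap, with adjusted p between 0.0715 and 0.107. Over all probe sets, 16.7% lay above without overlap. LRP6 gave a difference of -0.07. Mean signals in this role ran from 6.79 for ROR2 to 9.78 for RYK.

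The secreted inhibitors held the largest median difference of the roles, 0.35, which is the value of SFRP2, a gene not called. Of the 5 genes, 2 were higher and 0 lower, beside 6.79% and 6.39% of all probe sets. SFRP1, which carries a Frizzled-like domain that binds WNT proteins, gave the largest difference of all 50 genes. Its log2 signal was 5.91, 6.03 and 6.12 on the arrays labelled HEK-BAHD1, against 4.94, 5.23 and 5.28 on those labelled HEK293-CT. The means were 6.02 ± 0.105 for the label HEK-BAHD1 and 5.15 ± 0.184 for the label HEK293-CT (SD, n = 3 each), a difference of 0.87 (SE 0.101, adjusted p = 0.00269 from limma). The lowest array labelled HEK-BAHD1 stood well above the highest labelled HEK293-CT. WIF1, a secreted protein that binds WNT ligands outside the cell and whose promoter window held 29 CG pairs, read 4.62, 4.39 and 4.37 on arrays labelled HEK-BAHD1, against 3.83, 3.68 and 4.03 on arrays labelled HEK293-CT. The difference was 0.61 (SE 0.105, adjusted p = 0.0109), without overlap, at a mean signal brighter than only 19.7% of all probe sets. On the arrays labelled HEK293-CT its signals lay under the mean of the 4 endothelial markers (4.05 to 4.22), so that its level there was not shown to be above background and no fold is given. The endothelial markers were dimmer than SFRP1 (mean signal 5.59), NKD1 (5.52) and WNT16 (5.06). Other markers, APOA1 (5.69), KRT14 (5.85) and COL3A1 (5.88), were brighter, so that these WNT genes were not shown to be above background either. COL1A1 (6.61) was also brighter than WNT3 (6.08), WNT10B (6.18), TCF7L1 (6.21), WNT5B (6.35) and WNT11 (6.53), to which the same limit applies. It applies as well to each gene named below that was dimmer than COL1A1. SFRP2 (0.35, adjusted p = 0.0739) and the brighter probe set of DKK3 (0.25, adjusted p = 0.097) were above without overlap, and the other DKK3 probe set differed by 0.03 (adjusted p = 0.819). DKK1 differed the other way, by -0.20 (adjusted p = 0.179), with overlap.

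LGR5 had the smallest adjusted p of the 50 genes. It encodes a receptor for R-spondins, which amplify WNT signals, and marks stem cells of the intestine, where it is itself a WNT target. It read 9.07, 9.08 and 8.99 on arrays labelled HEK-BAHD1, against 8.22, 8.30 and 8.18 on arrays labelled HEK293-CT. The means were 9.05 ± 0.0493 for the label HEK-BAHD1 and 8.23 ± 0.0611 for the label HEK293-CT (SD, n = 3 each), a difference of 0.81 (SE 0.0583, adjusted p = 0.000471 from limma), or 1.76-fold. The gap between the groups was many times the spread within them, and the probe set was the brightest of its role, with a mean of 8.64. Its paralogue LGR4 differed by 0.06. The E3 ligases that remove Frizzled receptors from the cell surface were not called, with 0.17 for ZNRF3 (adjusted p = 0.0836, groups apart) and -0.11 for RNF43.

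Of CTNNB1, GSK3B and APC, the 3 genes listed for β-catenin and its destruction complex, 0 were called, beside 13.2% of all probe sets. CTNNB1, which encodes β-catenin, read 11.70, 11.68 and 11.68 on arrays labelled HEK-BAHD1, against 11.71, 11.73 and 11.71 on arrays labelled HEK293-CT. The groups were apart by very little, at a difference of -0.03 (95% interval -0.14 to 0.08). The kinase gene GSK3B differed by -0.04 (95% interval -0.16 to 0.08) and the scaffold gene APC by -0.11 (95% interval -0.25 to 0.04). At an unadjusted p below 0.05, 0 of these 3 genes passed limma's test, beside 14.5% of all probe sets higher and 14.8% lower. The local pooled error test called 0, beside 6.29% higher and 7.41% lower.

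Of 3 measured TCF and LEF factors, 1 was higher and 0 were lower, beside 6.79% and 6.39% of all probe sets. The higher one, TCF7L1, mostly represses WNT target genes. It read 6.38, 6.28 and 6.31 on arrays labelled HEK-BAHD1, against 6.10, 6.10 and 6.11 on arrays labelled HEK293-CT, a difference of 0.22 (SE 0.0528, adjusted p = 0.034 from limma). The groups did not overlap, but the call was lost without any 1 of the 6 arrays (adjusted p 0.0575 to 0.0983). LEF1, the brightest of the 3 at 8.36, lay above without overlap (0.14, adjusted p = 0.216), and TCF7L2 differed by 0.05.

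The 3 feedback targets are genes that canonical signalling induces and whose products mostly damp it. Of these, 1 was higher and 0 were lower, beside 6.79% and 6.39% of all probe sets. NKD1, which binds Dishevelled, read 5.66, 5.63 and 5.69 on arrays labelled HEK-BAHD1, against 5.35, 5.32 and 5.49 on arrays labelled HEK293-CT, a difference of 0.27 (SE 0.0626, adjusted p = 0.0292 from limma). No overlap was seen, and the call was lost without any 1 array other than HEK293-CT replicate 3 (adjusted p 0.0626 to 0.0879). AXIN2, a scaffold of the destruction complex and a widely used readout of canonical signalling, read 6.31, 6.47 and 6.29 on arrays labelled HEK-BAHD1, against 6.19, 6.08 and 6.45 on arrays labelled HEK293-CT. The groups overlapped, and the difference was 0.12 (95% interval -0.12 to 0.35). The interval of NKD1 (0.13 to 0.42) overlapped those of AXIN2 and SP5 (-0.20 to 0.25), and whether these genes differed from each other was not tested.

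**Figure D3:**
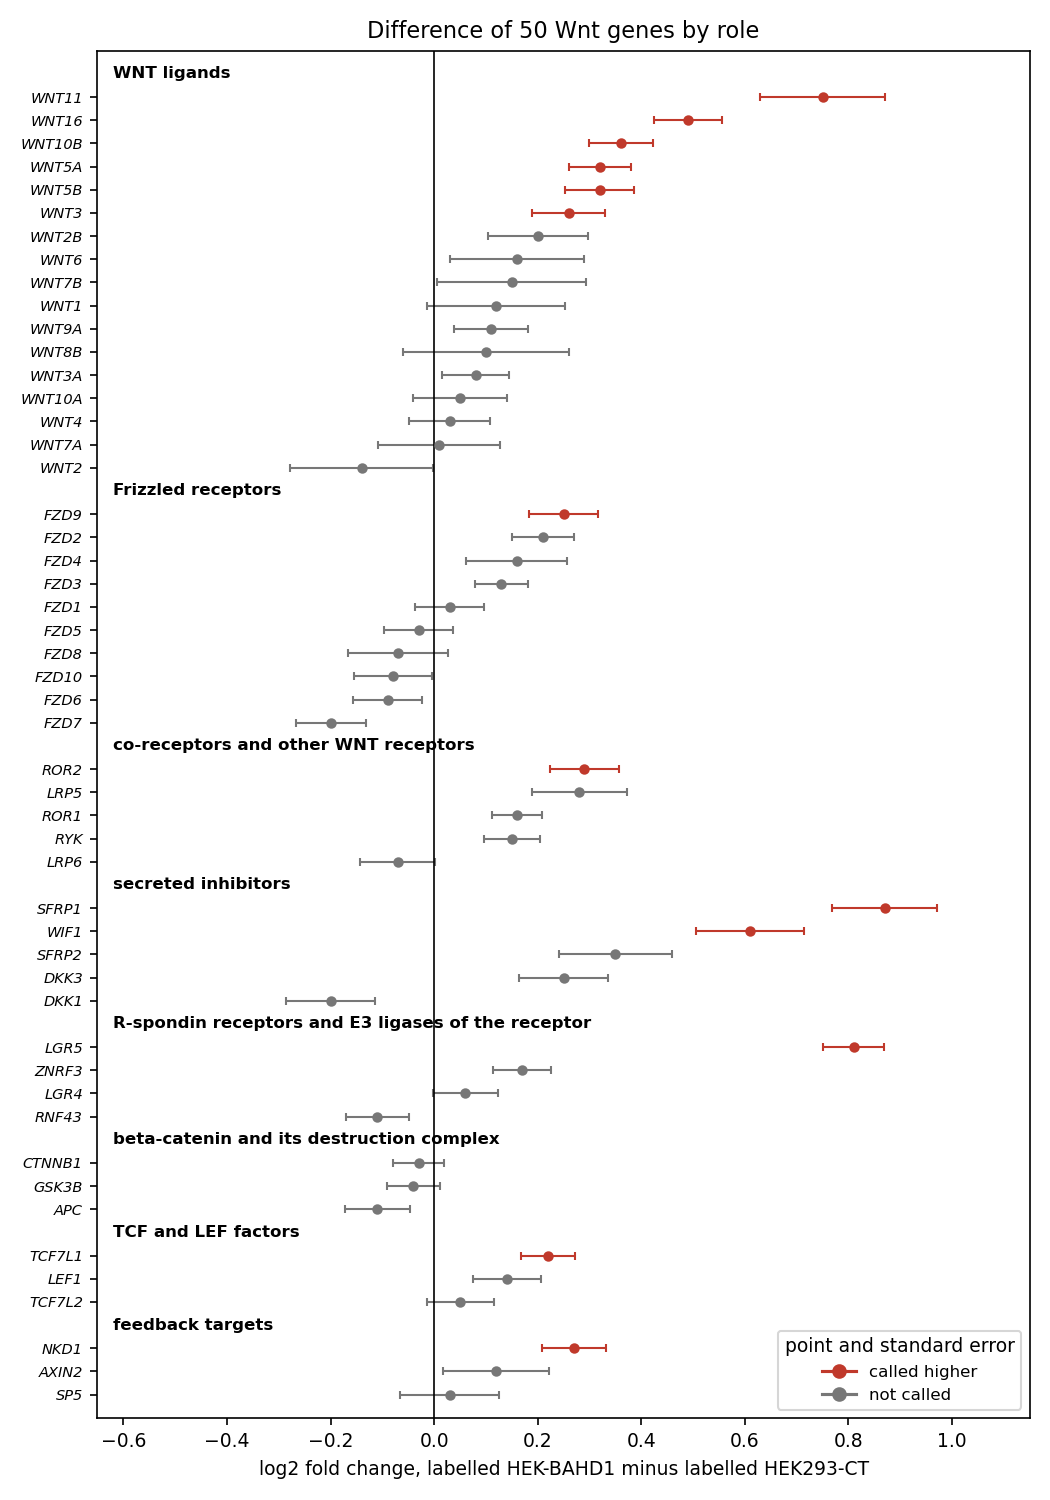
Difference in log2 signal between arrays labelled HEK-BAHD1 and HEK293-CT, with its SE, for 50 WNT genes grouped by role, called genes in red. The differences range from -0.20 to 0.87, and the largest are those of SFRP1, LGR5 and WNT11.

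The wider pathway was described with 101 other genes, chosen with earlier results of these data known, of which 97 were measured. Here 11 genes (11.3%) were higher and 3 (3.09%) were lower, beside the same 6.79% and 6.39% of all probe sets, with a median difference of 0.09. Among other genes of WNT secretion and action, other inhibitors and other receptor-level genes, 0 of 28 were called by limma, while 9 were higher and 1 was lower at an unadjusted p below 0.05, beside 14.5% and 14.8% of all probe sets. The local pooled error test called 1 of them higher and 0 lower, beside 6.29% and 7.41%. Of the 18 other cytoplasmic genes, 1 was higher and 0 were lower, beside 6.79% and 6.39% of all probe sets. AMER1, a partner of APC, was higher by 0.34 (adjusted p = 0.0394 from limma). The call was lost without any 1 array other than HEK293-CT replicate 2 (adjusted p 0.0808 to 0.119).

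Genes known as WNT transcription targets in other tissues included the largest differences of the pathway. Of the 28 measured, 6 were higher and 1 was lower, beside 6.79% and 6.39% of all probe sets. This list was chosen with earlier results of these data known. CCND1, CD44 and MYC are named because their called differences were the largest of the list. CCND1, encoding cyclin D1, read 8.48, 8.50 and 8.52 on arrays labelled HEK-BAHD1, against 6.76, 6.51 and 6.35 on arrays labelled HEK293-CT, a difference of 1.96 (SE 0.0993, adjusted p = 0.000176 from limma). MYC, a growth-promoting transcription factor gene, read 9.15, 9.15 and 9.13 on arrays labelled HEK-BAHD1, against 8.16, 8.03 and 8.01 on arrays labelled HEK293-CT, a difference of 1.08 (SE 0.0592, adjusted p = 0.000252). CD44, a cell adhesion receptor gene, read 6.60, 6.68 and 6.75 on arrays labelled HEK-BAHD1, against 5.62, 5.73 and 5.37 on arrays labelled HEK293-CT, a difference of 1.10 (SE 0.0962, adjusted p = 0.00103). On the arrays labelled HEK293-CT, the means of CCND1 (6.54) and CD44 (5.57) lay under that of the fibroblast marker COL1A1 (6.59). Their levels there were thus not shown to be above background, and no fold is given. CCND1, MYC and CD44 all stood far apart between the groups. Of the feedback targets, the groups overlapped in AXIN2 and SP5 but not in NKD1 (difference 0.27). LGR5, a WNT target in the intestine, was higher by 0.81 without overlap. The 1 lower target, named after its values were seen, was ID2, an inhibitor of basic helix-loop-helix factors, at 8.81, 8.75 and 8.87 on arrays labelled HEK-BAHD1, against 9.52, 9.84 and 9.64 on arrays labelled HEK293-CT (difference -0.86, adjusted p = 0.00168).

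Of 12 measured nuclear partners of the pathway, 3 were higher and 1 was lower, beside 6.79% and 6.39% of all probe sets. CHD8, a chromatin remodeller that binds β-catenin, was lower, at 8.43, 8.50 and 8.43 on arrays labelled HEK-BAHD1, against 9.06, 9.0 and 9.01 on arrays labelled HEK293-CT, a difference of -0.57 (SE 0.0528, adjusted p = 0.00126 from limma). TLE2, a co-repressor that TCF factors recruit, was higher at 6.33, 6.46 and 6.22 on arrays labelled HEK-BAHD1, against 5.73, 5.69 and 5.98 on arrays labelled HEK293-CT (difference 0.54, adjusted p = 0.0125). The short relative TLE5 was higher by 0.43 (adjusted p = 0.00759). The groups did not overlap in any of the 3 genes. Of the 11 planar polarity genes, 1 was higher and 1 was lower, beside 6.79% and 6.39% of all probe sets. VANGL2 was higher by 0.77 (adjusted p = 0.0422) and CELSR3 differed the other way, by -0.33 (adjusted p = 0.0286). Both encode membrane proteins of polarized cells, and both calls were lost without any 1 array other than HEK293-CT replicate 3 (adjusted p 0.0708 to 0.116 for VANGL2 and 0.0583 to 0.0811 for CELSR3).

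**Figure D4:**
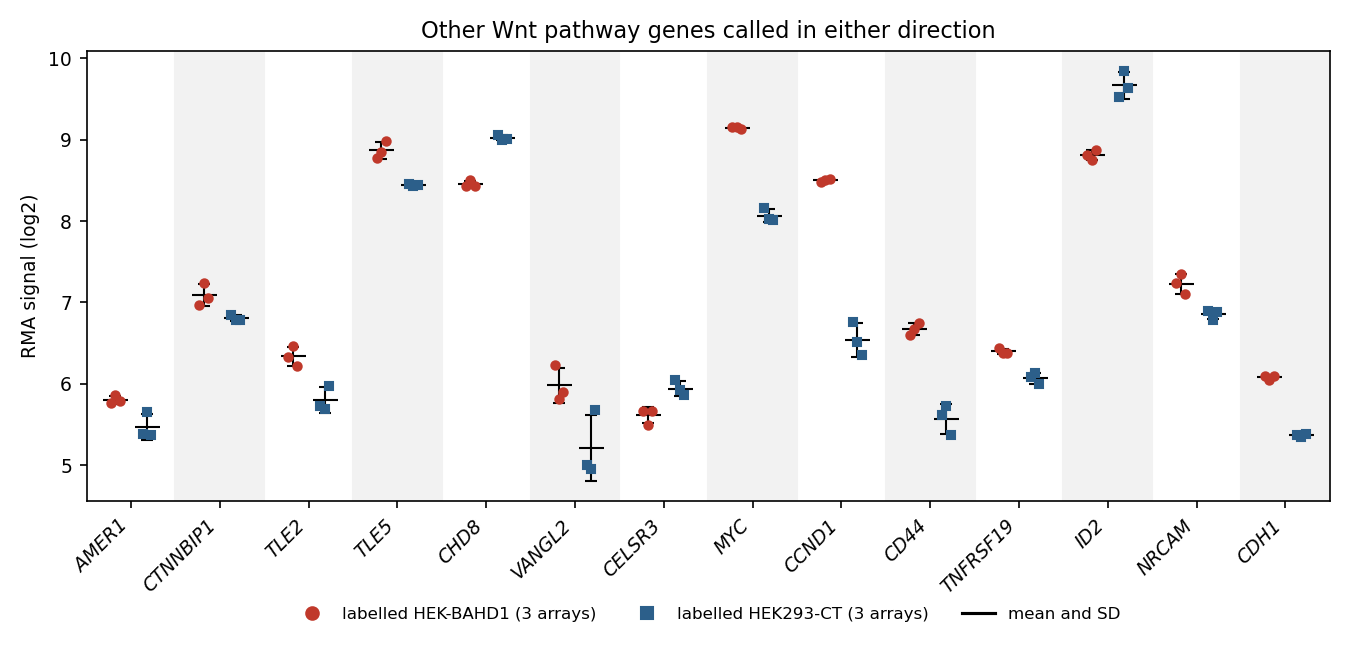
Log2 signal of each array for the 14 called genes of the wider pathway, with the 3 arrays labelled HEK-BAHD1 as red circles on the left of each pair and the 3 labelled HEK293-CT as blue squares on the right, and bars for the mean and SD. The groups lie farthest apart in CCND1, by 1.96, and CHD8, CELSR3 and ID2 are the 3 genes that lie lower on the arrays labelled HEK-BAHD1.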

How the data were processed

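The deposited values are log2 intensities per probe set, which the authors made from Affymetrix Human Gene ST scans by robust multi-array averaging (RMA: background correction, quantile normalization and summary over probes). Its version was not given in the sources used here. This method holds the probe intensities of the arrays to 1 distribution before the summary. A shift common to all genes would therefore mostly not show, although the array medians still ranged from 5.46 to 5.56. The method also compresses differences of dim probe sets. The number of arrays limits the precision, and no read depth applies.

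Of 28869 probe sets, 21062 named at least 1 gene in the platform annotation (19311 named 1 and 1751 several, 7807 none). Symbols were updated through Entrez numbers. The brightest probe set that named a gene alone stood for it. Groups followed the labels. Differences were tested with limma 3.58.1 in R 4.3.3 (lmFit, eBayes, 2 groups, no covariates, two-sided) with Benjamini-Hochberg adjustment over the 21062 probe sets. A call needed an adjusted p below 0.05 and a difference of medians above 0.2, the threshold of the methods. Their local pooled error test, rewritten over 100 bins of intensity with a smoothing spline (10 degrees of freedom), was an alternative, with other scalings, filters, variance models, a replicate block and each array left out. The code was tested on simulated data. Every listed WNT gene could be named. Called genes were given in full, genes apart but not called by their difference, and the rest by range. Of each wider list, the 3 largest called differences were named. Members, lists and tests were chosen with earlier results of these data known.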

Additional observations from a re-analysis of the deposited data

How the results depend on the processing

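The count of WNT genes called higher, 13, fell to 6 with the local pooled error test and to 8 with a replicate block, and to between 7 and 9 without 1 array, 7 being the count without HEK-BAHD1 replicate 3 or HEK293-CT replicate 2 and 8 that without HEK-BAHD1 replicate 1. Over all probe sets, 1430 were called higher, against 1325 with the local pooled error test, 962 with the block and 806 to 938 without 1 array. In the other settings the count of WNT genes lay between 10 and 13, and 0 were called lower in any of the 18. Deviations of same-numbered arrays correlated at -0.0772, 0.0744 and -0.0384, against -0.136 to 0.176 between arrays with different numbers. With 3 arrays a group, these values cannot show whether the samples were handled in pairs. The median difference of the 50 genes, 0.132, moved to 0.092 with arrays centred on their medians and lay between 0.124 and 0.151 without 1 array. Cyclic loess was added after seeing the data. WNT5A, WNT11, WNT16, SFRP1 and LGR5 kept their calls in all 18 settings, WIF1 in the 17 that tested it, and WNT10B in all but the local pooled error test. WNT3, FZD9 and TCF7L1 lost theirs under centring, quantile and cyclic loess normalization (adjusted p 0.0608, 0.0557 and 0.0541 for WNT3, 0.0636, 0.0649 and 0.0539 for FZD9, 0.0996, 0.0762 and 0.0739 for TCF7L1), and the cause was not tested. FZD2 was called without the dimmest 30% of probe sets (adjusted p = 0.0286), LRP5 with a variance trend (0.0468) and without HEK-BAHD1 replicate 2 (0.0432), and DKK3 without HEK-BAHD1 replicate 1 (0.0319). In the wider pathway 8 to 15 genes were called higher and 2 to 3 lower, not always the same genes. BAHD1 differed by -3.18 to -3.03.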
